A study of Homo sapiens with 11 samples.

Results

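The transcripts described here are those that differed between T47D cells given E2-BSA together with G15 and T47D cells given G15 alone. The response was read as the difference between these 2 arrays, out of 11 arrays in the study, for all 54613 probe sets that are not array controls. The same treatment contrast was measured in 3 further array pairs, which are used only to place the response with G15. T47D is an established human breast cancer cell line with luminal features and estrogen receptor alpha. E2-BSA is estradiol coupled to bovine serum albumin, a conjugate used to favour receptors at the cell surface. GPER1 is a G protein-coupled receptor that binds estradiol and is coupled to cyclic AMP and to the ERK kinases, and G15 is an antagonist of it. The nuclear estrogen receptors instead bind DNA at estrogen response elements or through other factors and recruit cofactors to genes such as MYC, PGR and GREB1. The comparison asks which of the conjugate's transcript responses were still measured with the GPER1 antagonist in the medium.

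Every culture was first kept in 10% charcoal-stripped serum for 4 h, and treatment in that serum lasted 3 h. The pair described here used 1 µM E2-BSA with 10 µM G15 against 10 µM G15 alone. The ICI pair used 1 µM E2-BSA with 10 µM ICI, an antagonist that the labels name by this abbreviation alone, against 10 µM ICI. In the remaining E2-BSA pairs, cells with 1 µM E2-BSA and no antagonist were set against untreated controls, as E2-BSA 1 over control 1 (the first pair) and E2-BSA 2 over control 2 (the second pair). Single arrays of BSA, of 0.1% ethanol and of estradiol complete the series. Whether repeated arrays come from independent cultures is not stated in the labels, so p-values measure only the spread between these arrays, which may be technical. Cells were treated in bulk, so fewer cells of a kind and less RNA per cell cannot be told apart.

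Control 1, E2-BSA 1 and estradiol stood apart from the other 8 arrays, and the first principal component of the 11 arrays, which separates these sets, held 71.0% of their variance. The labels name no batch. Both arrays of the G15 pair belong to the larger set, as do the ICI pair and the second pair, so the difference described here does not cross the sets. Values had an SD over probe sets of 0.162 on the G15 array and 0.194 on the E2-BSA+G15 array, against 0.161 to 0.194 over the larger set and 0.405 to 0.420 in the smaller one. The 5′ minus 3′ contrast of the ACTB control probe sets was -0.08 on the G15 array and -0.05 on the E2-BSA+G15 array, and that of GAPDH was -0.11 and -0.28. The deposited values are centred per probe set, so they carry differences between arrays and no expression level: whether luminal markers are expressed, and whether fibroblast or leukocyte markers are absent, cannot be read from them. Differences in those markers were small with G15. None of 9 luminal, 5 basal, 7 fibroblast or 6 leukocyte markers measured reached a 1.5-fold difference in either direction, and their median differences were 0.04, -0.11, -0.15 and -0.04 on the log2 scale.

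With G15 present, E2-BSA went with higher transcripts of the oncogene MYC, the transcription factors GATA4 and MAFF, the cytokine-signalling inhibitor CISH, the chemokine CXCL12, the potassium channel KCNK5 and the retinoic acid receptor RARA. It went with lower transcripts of ID1, ID2 and ID3, which encode inhibitors of basic helix-loop-helix factors, of the Wnt antagonist DKK1, and of the interferon-stimulated genes IFI27 and IFI6. At least 2-fold differences were found in 82 probe sets, of which 74 were higher (0.135% of 54613) and 8 lower (0.0146%). The 74 came from 43 named genes and 24 probe sets without a single gene symbol, and the 8 from 7 named genes. With 1 array on each side these differences have no replicate check.

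The ICI pair had 46 such probe sets, 45 of them higher (0.0824%), and the second pair had 55, with 41 higher (0.0751%) and 14 lower. The first pair had 107 higher and 45 lower. Among the 10 pairs of larger-set arrays in which neither array had E2-BSA, the number of 2-fold probe sets ran from 2 to 116 with a median of 28. The 4 largest of these numbers all came from pairs with the ethanol array, and the 6 pairs without it had 2 to 42. G15 alone against control 2, which shares its G15 array with the response described here, had 1 higher and 13 lower. The lopsided split with G15 depended on the scale given to the arrays. It was 90.2% higher as deposited, 66.1% higher (39 and 20 probe sets) when the 8 larger-set arrays were quantile normalised among themselves, and 56.0% higher (186 and 146) when all 11 were.

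A moderated fit gave each difference a standard error by assuming that the 2 single arrays vary like the control and E2-BSA groups. With the array set as a block, that spread is how far the E2-BSA responses of the first and second pairs disagree, moderated across probe sets. No repeat of a G15 array enters it. In limma's moderated test with Benjamini-Hochberg adjustment over all probe sets, 53 probe sets were higher (0.097%) and 8 lower (0.0146%), and all 61 were past 2-fold. They named 29 genes higher and 7 lower. This test rested on 1 residual degree of freedom. No probe set passed it without the array set as a block (224 had an unadjusted p under 0.05) or after quantile normalisation of the 11 arrays (7685 had). Under that normalisation each of the 61 kept its sign and an unadjusted p under 0.05. Genes are said below to have passed when they did so in the fit with the block on the deposited scale. Passing there sets the size of a difference against an assumed spread, is lost under both of these settings, and is no replicate check.

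Promoters of 4 named genes are shown because they carry an arm of the estrogen receptor's DNA motif. They were picked for it, and the windows of CISH, OSGIN1, B4GALT1, IFI27, SHISA2 and DKK1 hold none. The sequences are the 250 bases before the annotated start of 3 genes that were higher with G15 and 1 that was lower, 5′ to 3′ on the gene's strand, from RefSeq on GRCh38.p14. Capitals mark the 5-base motif GGTCA, 1 arm of the estrogen response element, or its reverse complement TGACC. KCNK5 lies at chr6:39229476-39229725 on the minus strand, with its motif 188 bases before the start. CXCL12 lies at chr10:44385098-44385347 on the minus strand, with its motif at 208. RARA lies at chr17:40308930-40309179 on the plus strand, with motifs at 229, 159 and 92. ID1 lies at chr20:31605039-31605288 on the plus strand, with its motif at 105.
KCNK5: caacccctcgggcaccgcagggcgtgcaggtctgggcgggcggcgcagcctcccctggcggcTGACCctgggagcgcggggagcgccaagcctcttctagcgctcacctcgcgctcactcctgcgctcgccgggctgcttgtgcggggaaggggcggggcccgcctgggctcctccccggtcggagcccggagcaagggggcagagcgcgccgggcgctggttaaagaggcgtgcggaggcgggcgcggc
CXCL12: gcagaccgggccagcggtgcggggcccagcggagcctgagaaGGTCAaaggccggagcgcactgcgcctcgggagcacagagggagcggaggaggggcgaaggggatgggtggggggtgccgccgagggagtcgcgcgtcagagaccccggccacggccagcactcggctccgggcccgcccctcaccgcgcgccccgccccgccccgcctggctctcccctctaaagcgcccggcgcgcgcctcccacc
RARA: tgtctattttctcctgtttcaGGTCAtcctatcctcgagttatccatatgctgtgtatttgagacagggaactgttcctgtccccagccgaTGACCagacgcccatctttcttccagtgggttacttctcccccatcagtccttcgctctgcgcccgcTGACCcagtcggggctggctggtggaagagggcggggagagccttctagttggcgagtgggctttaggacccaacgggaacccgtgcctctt
ID1: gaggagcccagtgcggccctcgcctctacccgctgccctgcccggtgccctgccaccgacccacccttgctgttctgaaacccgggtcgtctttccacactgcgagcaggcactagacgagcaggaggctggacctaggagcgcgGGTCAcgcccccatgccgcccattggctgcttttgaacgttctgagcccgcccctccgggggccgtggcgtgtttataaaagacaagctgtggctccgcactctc
The full element, GGTCA and TGACC with any 3 bases between them, was found in none of these 4 and in 12 of all 27305 promoter windows (0.0440%). It was in 0 of the 32 windows matched to genes 2-fold higher with G15 and in 0 of the 7 matched to lower genes. The single 5-base motif, searched on both strands, was in 13 of the 32 (40.6%) and 2 of the 7 (28.6%), beside 33.1% of all windows. These counts describe letters in a short window and carry no test.

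**Figure D1:**
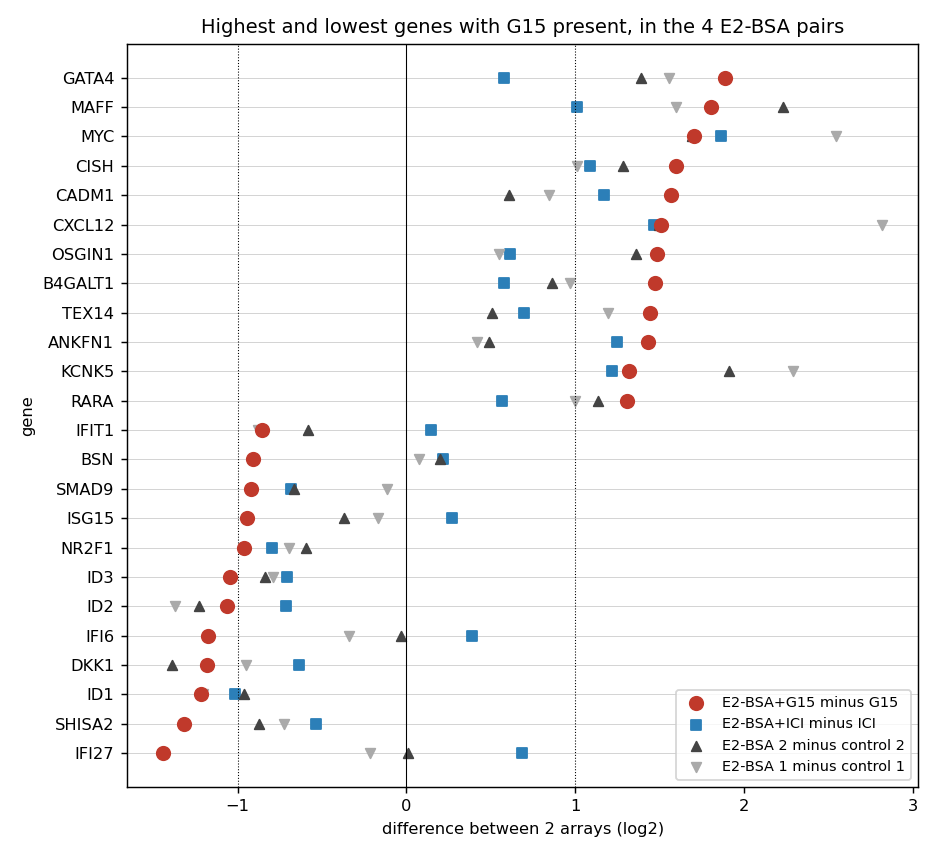
Each row is 1 of the 12 highest or 12 lowest genes by the difference E2-BSA+G15 minus G15. Uncharacterised loci and the like, among them LINC01016, were passed over. Each marker is the log2 difference between the 2 arrays of a pair, with dotted lines at 2-fold. The genes from GATA4 to RARA lie to the right of 0 in all 4 pairs, while IFI27, IFI6, ISG15, IFIT1 and BSN lie left of 0 with G15 and right of 0 with ICI.

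The highest probe set with G15, at 2.23, had no single gene symbol, and the next was the non-coding LINC01016 at 1.91. Of the protein-coding genes named here, the transcription factors GATA4, MAFF and MYC had the largest differences. GATA4, a zinc-finger factor of endoderm and heart development, read 1.49 on the E2-BSA+G15 array and -0.40 on the G15 array. It read 1.41 on E2-BSA 2, 0.25 on E2-BSA+ICI, 0.02 on control 2 and -0.33 on ICI. The 2 larger-set arrays with E2-BSA and without ICI were thus the high ones, and the E2-BSA+ICI array lay between them and the rest. The log2 difference with G15 was 1.89 ± 0.17 (SE of the fit), or 3.70-fold, and it passed (limma, adjusted p = 0.00257). The 5 GATA4 probe sets disagreed, from -0.28 to 1.89. MAFF, a small basic leucine zipper factor, differed by 1.80 ± 0.21 with G15 and by 1.01, 2.23 and 1.60 in the ICI, second and first pairs. Its highest value, 3.87, was on the ethanol array, above the 0.92 of E2-BSA+G15 and the 1.21 of E2-BSA 2. MAFF passed with G15 (adjusted p = 0.00975 in limma), but its second probe set differed by 0.02.

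MYC, a direct target of the nuclear estrogen receptor and a driver of cell growth, read 0.47 on the E2-BSA+G15 array and -1.24 on the G15 array. It read 0.77 on E2-BSA 2 and -0.93 on control 2, and the ICI array was the lowest at -2.80, with -0.93 on E2-BSA+ICI. The difference was thus of like size in the G15, ICI and second pairs, at 1.71, 1.87 and 1.69, and 2.55 in the first pair, while the level reached with ICI was no higher than that of control 2. MYC passed with G15 (limma, adjusted p = 0.0232). NRIP1, a corepressor of the estrogen receptor, read 0.04 on E2-BSA+G15 against -1.23 on G15, and 0.03 on E2-BSA 2 against -0.72 on control 2. These 2 E2-BSA arrays reached like values, and the G15 array lay below the control. The ICI array, at -1.27, and the BSA array, at -1.05, lay below it as well, and E2-BSA+ICI read -0.81. The NRIP1 difference of 1.27 ± 0.17 passed (adjusted p = 0.0194 in limma). RARA, a nuclear receptor induced by estradiol in breast cancer cells, read 1.17 on E2-BSA+G15 and -0.14 on G15, close to the 1.16 and 0.03 of E2-BSA 2 and control 2. Its difference of 1.31 ± 0.17 passed (limma, adjusted p = 0.0143). Its ICI pair differed by 0.57, and its 5 probe sets ran from -0.17 to 1.31 with G15.

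Among membrane and secreted proteins, KCNK5, a background potassium channel induced by estradiol, read 1.34 on E2-BSA+G15 and 0.03 on G15. It read 1.42 on E2-BSA 2 and -0.49 on control 2, so the arrays with the conjugate were alike and the G15 array was the higher of the 2 without it. The difference of 1.32 ± 0.18 passed (limma, adjusted p = 0.0232). It was 0.78 smaller than the mean of the pairs without antagonist, with a 95% interval of the change from -1.27 to -0.29 (adjusted p = 0.328, not passed). CXCL12, a chemokine that is a classical estrogen target, read 1.503 on E2-BSA+G15 and 1.498 on E2-BSA 2, and -0.01 and 0.00 on G15 and control 2. Its difference of 1.51 ± 0.32 did not pass by this probe set. The SE is wide because the response was 1.495 in the second pair and 2.822 in the first. Its other probe set differed by 1.10 ± 0.18 and passed (adjusted p = 0.0416 in limma). RET, a receptor tyrosine kinase and estrogen target, differed by 0.70 with G15, or 0.21 when its probe sets were averaged. By the probe set used it differed by 1.45 and 1.52 without antagonist. Here the G15 array, at 0.02, lay above control 2 at -0.61, but so did ICI (-0.07), BSA (-0.10) and ethanol (-0.15). Control 2 was thus the lowest of the larger-set arrays without E2-BSA. The change between responses was -0.79 ± 0.21 and did not pass.

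Further genes passed whose differences without antagonist were smaller. CADM1, a cell adhesion molecule, read 1.74 on E2-BSA+G15 and 0.17 on G15, while E2-BSA 2 and control 2 read 0.86 and 0.25. The E2-BSA+G15 array was the highest of these. The difference of 1.57 ± 0.17 compares with 1.17 with ICI, 0.61 in the second and 0.85 in the first pair. CADM1 has 6 probe sets, which ran from 0.04 to 1.57. The 3 of ANKFN1 ran from -0.14 to 1.44 and the 6 of B4GALT1 from 0.04 to 1.47, and their means were 0.45 for either gene. By the probe set used, ANKFN1 differed by 1.44 with G15, 1.25 with ICI, 0.49 in the second and 0.42 in the first pair. B4GALT1, a galactosyltransferase, differed by 1.47, 0.58, 0.87 and 0.97 in the same order. The change between the responses with and without G15 was 0.84 for CADM1, 0.98 for ANKFN1 and 0.56 for B4GALT1. None of the 3 passed (limma, adjusted p = 0.259, 0.204 and 0.487).

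Of the 74 probe sets that were 2-fold higher with G15, 72 were also above 0 in the ICI pair, 67 in the second pair and 65 in the first. Over all probe sets the share with the same sign as in the G15 pair was 57.3%, 50.7% and 49.4%. At least 1.5-fold differences were found in 47, 45 and 48 of the 74, and 25 were past 1.5-fold in all 3. Of all 54613 probe sets, 682, 271 and 717 were past 1.5-fold higher in the ICI, second and first pairs. Of the 74, 23 were also 2-fold higher in the second pair, which is 31.1% of the G15 pair's higher probe sets and 56.1% of the second pair's. With the ICI pair 18 were shared, 24.3% and 40.0%. Across all probe sets the differences of the G15 pair had a Pearson r of 0.293 with those of the ICI pair, 0.0729 with the second pair and 0.0504 with the first. These 4 pairs share no array, and the values are across probe sets, which are not independent.

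The 74 were divided by the second pair after the values were seen. The choice itself favours a high E2-BSA+G15 array and a low G15 array throughout, and sets how high E2-BSA 2 lies in each group, so the medians below are a description. In 45 of them E2-BSA 2 was at least 1.5-fold above control 2, and the median values were 1.06 on E2-BSA+G15, 1.05 on E2-BSA 2, -0.21 on G15 and -0.05 on control 2. The other 29 had medians of 0.90 on E2-BSA+G15, 0.43 on E2-BSA 2, 0.47 on E2-BSA+ICI, -0.25 on G15 and 0.02 on control 2. Of the 29, 19 were past 1.5-fold in the ICI pair, beside 682 past 1.5-fold higher among all 54613 probe sets. The 29 include 12 without a gene name, the highest of them at 1.42 with G15 and -0.13 in the second pair. Named ones are the interleukin-6 signal transducer IL6ST in 2 probe sets (1.09 and 1.06 with G15, 0.44 and 0.12 in the second pair), the ceramide glucosyltransferase UGCG (1.14 and 0.48) and a MALAT1 probe set (1.06 and -0.44). UGCG was low on G15 (-0.99), ICI (-1.03) and BSA (-1.33) alike, as was the first IL6ST probe set (-0.82, -0.83 and -0.94).

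A choice of transcripts that used no antagonist array gives the reverse reading. The 40 probe sets at least 2-fold different in the same direction in both pairs without antagonist (33 higher and 7 lower, from 31 named genes) were read in the G15 pair. There 39 of 40 had the same direction, 35 were past 1.5-fold and 21 past 2-fold. In the ICI pair the numbers were 38, 29 and 11. Over all probe sets, the G15 pair had the sign of the second pair in 50.7% and of the first in 49.4%. Of all 54613, 607 were past 1.5-fold higher with G15 and 224 past 1.5-fold lower. With the sign of the 7 lower ones turned, the median of the 40 was 1.05 with G15 and 0.78 with ICI. It was 1.28 and 1.52 in the second and first pairs, which the choice itself raises. They include the guanine nucleotide exchange factor RASGRP1 (1.30 with G15, 1.54 in the second pair), the alpha-2A adrenergic receptor ADRA2A (1.25 and 1.58), the Notch effector HEY2 (1.21 and 1.30), the orphan nuclear receptor NR5A2 (1.21 and 1.07), the matrix protein THBS1 (1.20 and 1.46) and the glycolytic regulator PFKFB3 (1.03 and 1.02). HEY2, NR5A2, THBS1 and PFKFB3 passed with G15 (limma, adjusted p = 0.0246, 0.0467, 0.0380 and 0.0480). Among the smallest were the calcium-regulating hormone STC1 (0.58 and 0.51 in 2 probe sets, against 1.03 and 1.10 in the second pair) and RET.

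The second pair can be set beside the antagonist pairs without that advantage when probe sets are chosen on the first pair alone. Over all probe sets 49.4% had the same sign with G15 as in the first pair. Of the 107 that were 2-fold higher in the first pair, 104 were above 0 with G15, 95 with ICI and 105 in the second pair. Their medians were 0.72, 0.52 and 0.80, so the G15 median was 90.6% and the ICI median 65.7% of that of the second pair. On the arrays with the conjugate, the median difference from E2-BSA 2 was -0.07 for E2-BSA+G15 and -0.46 for E2-BSA+ICI. The 45 lower ones did not keep their direction as a group with either antagonist. Of these, 40 were lower in the second pair, 21 with G15 and 14 with ICI. With G15 that is near the 49.4% over all probe sets. The medians with the sign turned were 0.50, -0.03 and -0.23 in that order. Past 1.5-fold lower with G15 were 7 of the 45, beside 224 of all 54613 probe sets.

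**Figure D2:**
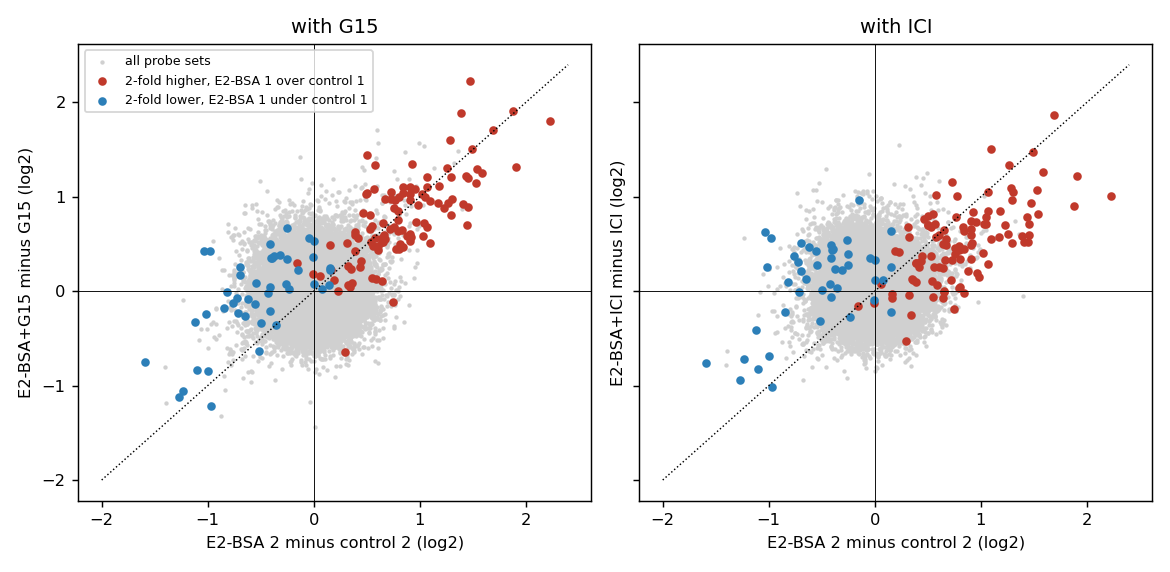
Each point is a probe set, with the log2 difference E2-BSA 2 minus control 2 on the x axis and the difference with G15 (left) or with ICI (right) on the y axis; coloured points were 2-fold higher or lower in E2-BSA 1 against control 1, and the dotted line marks equal differences. The 107 higher points lie nearer the line with G15 (median 0.72 against 0.80) than with ICI (0.52), while of the 45 lower points 21 lie below 0 with G15 and 14 with ICI. Over all probe sets 49.4% had the same sign with G15 as in E2-BSA 1 against control 1.

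The change in the response itself was tested. No probe set passed for the response with G15 minus that without antagonist (limma, 0 of 54613, smallest adjusted p = 0.0867, 4377 at an unadjusted p under 0.05). None passed for G15 minus ICI (smallest adjusted p = 0.0752, 2271 at an unadjusted p under 0.05). None passed either when the 3 other pairs were given 1 shared response (smallest adjusted p = 0.999, 2354 unadjusted). This does not show that the responses are alike. For the 40 probe sets above, the 95% interval reached a median of 0.48 to either side on the log2 scale. Of these intervals, which are not adjusted for the number of probe sets, 22 of the 40 held 0. The 40 were chosen on the response that is subtracted here. That choice favours a smaller response with G15, so the count of intervals is a description.

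Estrogen-induced genes were higher as a group. The lists here and below were chosen with earlier results of these data known, so their directions are not independent evidence. Of 42 measured, 40 were above 0 with G15 (46.3% of all 19775 genes were), 18 were past 1.5-fold higher (1.44% of all genes) and none past 1.5-fold lower. The median was 0.53 with G15, 0.32 with ICI, 0.56 in the second pair and 0.79 in the first. MYC, KCNK5, RARA, NRIP1 and HEY2 passed. Members that did not pass include the secreted glycoprotein STC2 at 0.98, the factor MYB at 0.88, the trefoil peptide TFF1 at 0.71, cyclin D1 (CCND1) at 0.70, the progesterone receptor PGR at 0.56 and GREB1, an estrogen receptor cofactor, at 0.51. PGR was at one size in the G15, ICI and second pairs (0.56, 0.57 and 0.58).

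Among 14 estrogen-repressed genes the median was -0.70 with G15, -0.54 with ICI, -0.61 in the second and -0.69 in the first pair. Of these, 9 were past 1.5-fold lower (0.794% of all genes were) and SHISA2 passed, at -1.32 ± 0.17 (limma, adjusted p = 0.0143). SHISA2 read -1.59 on E2-BSA+G15 against -0.27 on G15, and -0.91 on E2-BSA 2 against -0.03 on control 2. Others were NR2F1 at -0.96, the ephrin receptor EPHA4 at -0.86, SLITRK6 at -0.85, AMIGO2 at -0.83 and FLRT3 at -0.75. These 6 genes were put on the list because they were lower in earlier results of these arrays, so their direction is not independent evidence. The list's median was -0.41 when a gene's probe sets were averaged.

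ID genes are targets and feedback regulators of BMP signalling. ID1 read -1.14 on E2-BSA+G15 and 0.08 on G15, -0.69 on E2-BSA 2 and 0.28 on control 2, and -0.71 on E2-BSA+ICI and 0.30 on ICI. In each of the 3 larger-set pairs the array with the conjugate was the lower one. ID1 at -1.22, ID2 at -1.06 and ID3 at -1.04 passed with G15 (limma, adjusted p = 0.0250, 0.0410 and 0.0410). In all, 6 of 13 BMP and TGF-beta feedback genes were past 1.5-fold lower (0.794% of all genes were) and none higher. The median was -0.49, against -0.55 with ICI, -0.67 in the second pair and -0.29 in the first. The inhibitory SMAD6 differed by -0.61, SMAD9 by -0.92 and the pseudoreceptor BAMBI by -0.72, and the corepressor SKIL by 0.53. When its probe sets were averaged SMAD9 was at -0.39. Among 11 Wnt feedback genes DKK1 passed at -1.18 ± 0.19 (limma, adjusted p = 0.0410), with -0.64, -1.39 and -0.95 in the ICI, second and first pairs. The ubiquitin ligase RNF43 differed by -0.60, and the list's median was -0.02.

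**Figure D3:**
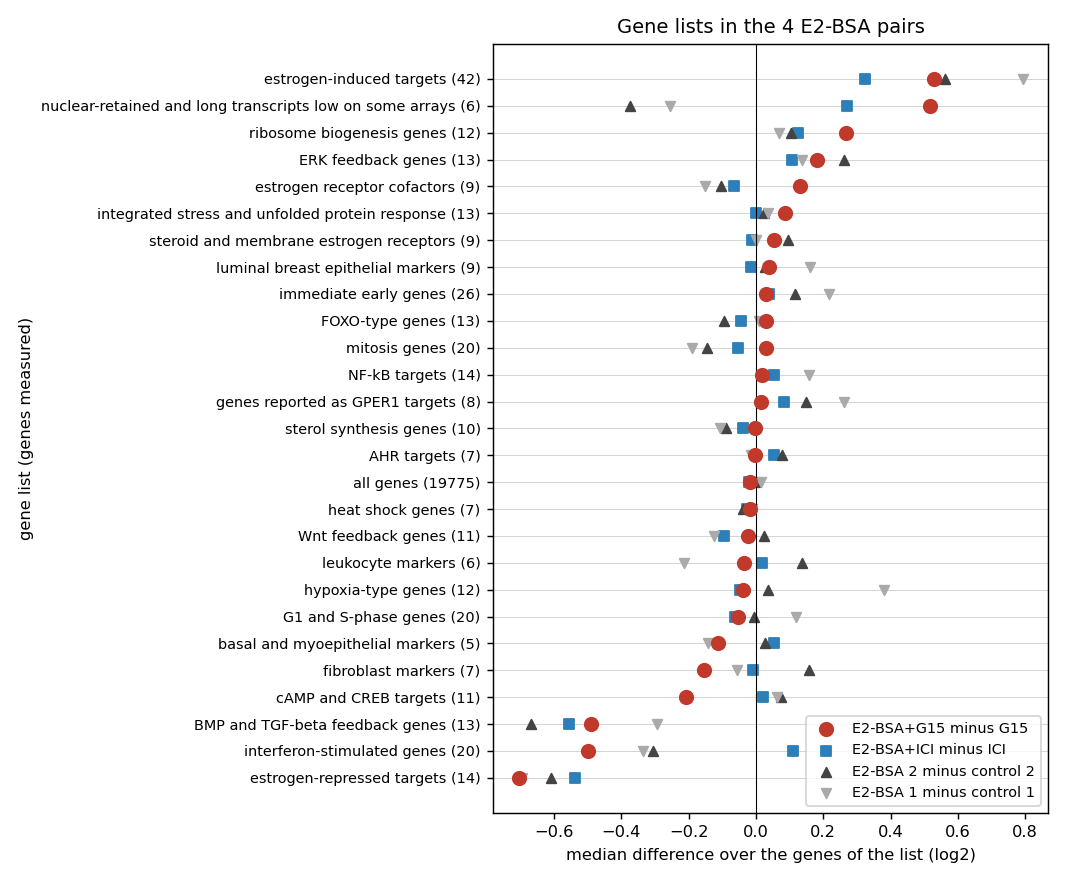
Rows are gene lists with the number of genes measured, and each marker is the list's median log2 difference in 1 of the 4 E2-BSA pairs. With G15 the estrogen-induced list (0.53) and the nuclear-retained list (0.52) are highest and the estrogen-repressed list (-0.70), the interferon-stimulated list (-0.50) and the BMP list (-0.49) lowest; the interferon list is at 0.11 with ICI.

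Genes tied to GPER1 itself differed little. Of 8 genes reported as GPER1 targets, 4 were above 0 with G15 (46.3% of all genes were). In the ICI, second and first pairs 5, 6 and 7 were, beside 45.9%, 49.6% and 52.6% of all genes. The median was 0.02 with G15, against 0.08, 0.15 and 0.26 in the ICI, second and first pairs. FOS differed by -0.16, EGR1 by -0.03, the matricellular factor CCN2 by -0.20 and CCN1 by 0.06. Only VEGFA, the vascular growth factor, was past 1.5-fold, at 0.68, and it did not pass. It was at 0.13 when its probe sets were averaged. EGR1 differed by 0.76 in the second pair and -0.57 in the first, so those pairs disagree. GPER1 differed by 0.35 with G15, its 2 probe sets running from -0.23 to 0.35, and ESR1 by -0.38 over 9 probe sets running from -0.38 to 0.25. ESR2, the estrogen receptor beta gene, differed by 0.12. None of 9 steroid and membrane estrogen receptor genes was past 1.5-fold. Over 26 immediate early genes the median was 0.03, and MYC, MAFF, EGR3 (0.87) and KLF10 (0.81) were past 1.5-fold, of which MYC and MAFF passed. EGR3 differed by -0.05 with ICI and 1.40 in the second pair.

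Cyclic AMP and CREB targets had a median of -0.21 over 11 genes with G15, against 0.02, 0.07 and 0.06 in the ICI, second and first pairs. The lowest was the metabolic coactivator PPARGC1A at -0.69, the only one past 1.5-fold. The 13 ERK feedback genes had a median of 0.18, with the ERK phosphatases DUSP6 at 0.85 and DUSP4 at 0.74 past 1.5-fold. DUSP6 read -0.60 on E2-BSA+G15 and -1.45 on G15, against 0.67 on E2-BSA 2 and 0.20 on control 2. Both arrays with G15 were thus the low ones, and DUSP6 did not pass (limma, adjusted p = 0.462).

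Interferon-stimulated genes were mostly below 0 with G15 and in both pairs without antagonist, and mostly above 0 with ICI. Of 20 measured, 16 were below 0 with G15 and 9 past 1.5-fold lower. Above 0 were 4 with G15, 4 in the second pair, 4 in the first and 16 with ICI. Over all genes 46.3% were above 0 with G15 and 0.794% were past 1.5-fold lower. The interferon median was -0.50 with G15 against 0.11 with ICI, -0.31 in the second and -0.33 in the first pair. IFI27, a small mitochondrial and membrane protein strongly induced by interferon, read -0.18 on E2-BSA+G15 and 1.26 on G15. It read 0.81 on ethanol, -0.01 on E2-BSA 2, -0.02 on control 2, 0.01 on E2-BSA+ICI, -0.68 on ICI and -0.76 on BSA. The G15 array was thus the highest of the larger set, and the E2-BSA+G15 array lay within the range of the rest. IFI27 at -1.44 ± 0.17 and IFI6 at -1.18 ± 0.18 passed (limma, adjusted p = 0.0106 and 0.0357). IFI6 read 0.80 on the G15 array and -0.38 on E2-BSA+G15. The ubiquitin-like ISG15 differed by -0.94 and the antiviral genes OAS1 and IFIT1 by -0.86 each, without passing. G15 alone lay above control 2 by a median of 0.21 over the 20 genes, and by 1.28 for IFI27, 0.92 for ISG15 and 0.69 for IFI6. The IFI27 response with G15 was -2.13 relative to that with ICI and -1.34 relative to that without antagonist (limma, adjusted p = 0.0752 and 0.118), neither of which passed.

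**Figure D4:**
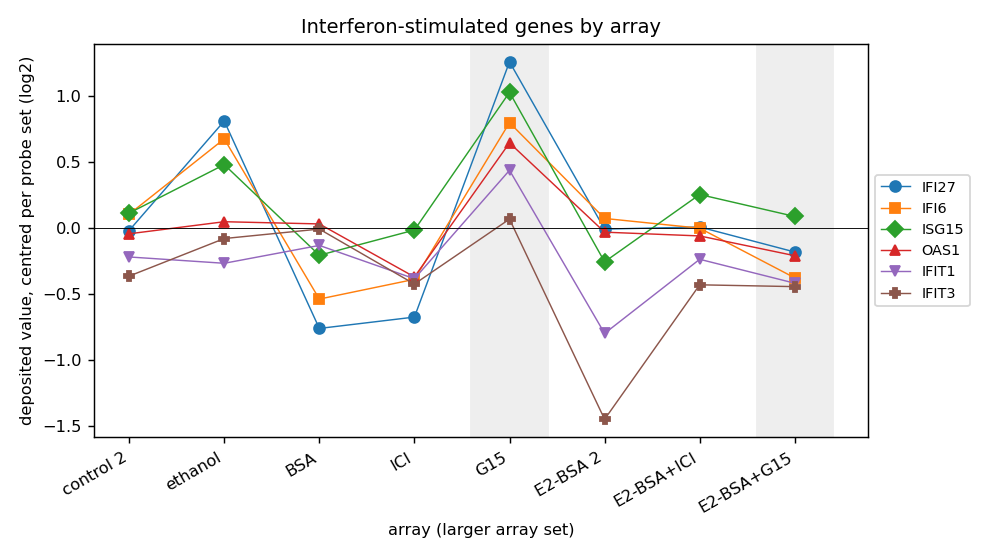
Deposited log2 values, centred per probe set, of 6 interferon-stimulated genes on the 8 arrays of the larger set, with the G15 and E2-BSA+G15 arrays shaded and lines only joining the values of a gene. All 6 genes have their highest value on the G15 array, at 1.26 for IFI27 and 1.03 for ISG15.

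Nuclear-retained and long transcripts were above 0 with G15, and their G15 array was low. The list was drawn up because these transcripts were low on some of the arrays, so its direction is not independent evidence. All 6 measured were above 0 with G15 (46.3% of all genes were). Their median was 0.52 against 0.27 with ICI, -0.37 in the second pair and -0.26 in the first. The median with G15 was 0.16 when a gene's probe sets were averaged. MALAT1, a nuclear long non-coding RNA, read -0.26 on E2-BSA+G15 and -1.09 on G15. It read -0.58 on E2-BSA 2, 0.07 on control 2, -0.07 on E2-BSA+ICI, -0.92 on ICI, -1.40 on BSA and -0.23 on ethanol, so the G15, ICI and BSA arrays were the low ones. The MALAT1 difference by this probe set was 0.83 ± 0.18 (limma, adjusted p = 0.143), and that of its probe set past 2-fold, 1.06 ± 0.17, passed (adjusted p = 0.0410 in limma). Its 12 probe sets ran from 0.03 to 1.06. NASP differed by 0.74 and the helicase DHX9 by 0.57. When its probe sets were averaged NASP was at 0.19. G15 alone lay below control 2 by a median of -0.91 over the 6 transcripts.

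**Figure D5:**
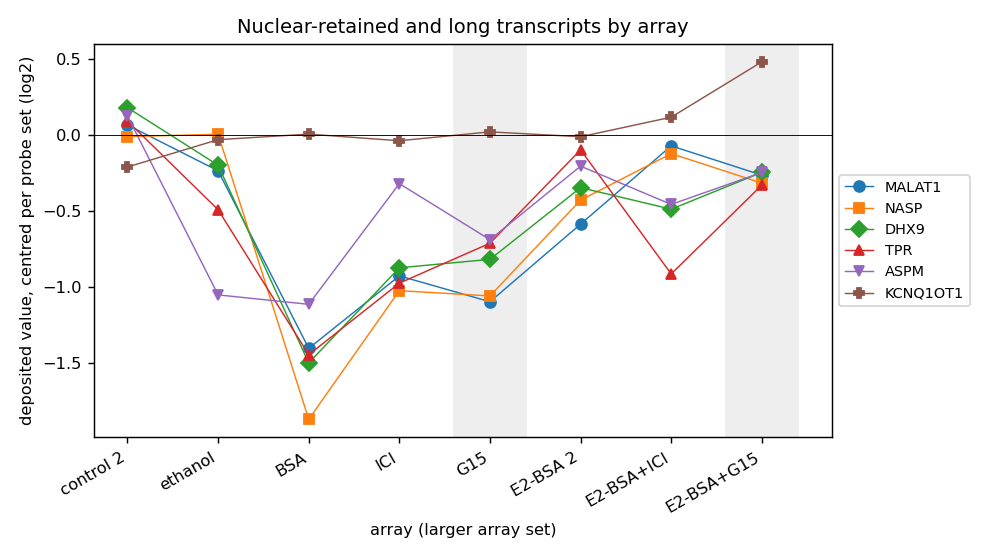
Deposited log2 values, centred per probe set, of 6 nuclear-retained or long transcripts on the 8 larger-set arrays, with the G15 and E2-BSA+G15 arrays shaded and lines only joining the values of a gene. MALAT1, NASP and DHX9 are lowest on the BSA, ICI and G15 arrays, while KCNQ1OT1 stays within 0.21 of 0 except at 0.48 on E2-BSA+G15.

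Growth and stress lists differed little. The 20 G1 and S-phase genes had a median of -0.05 with G15, with CCND1 (0.70) and the kinase CDK6 (0.68) past 1.5-fold. CDK6 was at 0.03 when its probe sets were averaged. The 20 mitosis genes had 0.03, with TOP2A at 0.85 and BUB1 at 0.71, both by 1 of several probe sets that disagreed (from -0.05 and -0.42). The 12 ribosome biogenesis genes had a median of 0.27 and 10 above 0 (46.3% of all genes were). WDR43 at 0.68 and NOP16 at 0.61 were past 1.5-fold, and NOP16 was at 0.29 when its probe sets were averaged. The list's medians were 0.13, 0.11 and 0.07 in the ICI, second and first pairs. Of 9 estrogen receptor cofactors NRIP1 alone was past 1.5-fold, and the median was 0.13. Of 12 hypoxia-type genes PFKFB3, STC2 and VEGFA were, with a median of -0.04. The 13 FOXO-type genes had a median of 0.03 and 2 past 1.5-fold lower. No gene was past 1.5-fold among 14 NF-kB targets (median 0.02), 7 AHR targets (0.00), 13 integrated stress and unfolded protein response genes (0.09), 10 sterol synthesis genes (0.00) and 7 heat shock genes (-0.02).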

How the data were processed

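Total RNA of 11 T47D samples was labelled and hybridised to Affymetrix HG-U133 Plus 2 arrays, per the labels' protocols. The values deposited by the authors, 1 per probe set and array, were read as log2 from their size. They had been normalised across arrays and centred per probe set by the authors, by a method and with a log base not given in the sources used here, so no expression level, signal over background or filter on dim probe sets was available, and higher values were read as more transcript. The number of arrays limits the precision.

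The 62 array controls were left out of 54675 probe sets. By the platform's annotation 41091 had 1 gene symbol, 1801 several and 11721 none, and 41037 symbols were updated through the RefSeq gene table of GRCh38.p14. A gene with several probe sets took the one that varied most (SD, array-set means removed), which left 19775 genes. The difference E2-BSA+G15 minus G15 was counted at 1.5-fold, 2-fold and 3-fold. Differences between responses were fitted in R 4.3.3 with limma 3.58.1 (lmFit and eBayes, group means of all 11 arrays with the array set as a block, threshold 0.05 on the Benjamini-Hochberg adjusted p-value over all probe sets), after the fit was tested on simulated data. Single arrays enter as groups assumed to vary like control and E2-BSA. With the block, the residual is the disagreement between the first and second pairs. Tables and plots used Python 3.11.15, pandas 2.3.3, numpy 2.4.6 and matplotlib 3.10.9.

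Named are the 12 highest and 12 lowest genes (uncharacterised loci and the like passed over), the 5 highest and 5 lowest of each tested difference, up to 4 genes of each of 26 lists and a set list, mostly receptors and estrogen targets. Further genes (LINC01016, HEY2, NR5A2, THBS1, RASGRP1, ADRA2A, STC1, IL6ST, UGCG and other list members) were chosen after their values were seen. The comparison, the lists and the array sets were chosen with earlier results of these data known. Alternatives were quantile normalisation, array median centring, other fold thresholds, no block, a robust prior, fewer arrays, leaving out arrays, and averaging a gene's probe sets. Promoter sequences came from RefSeq.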

Additional observations from a re-analysis of the deposited data

Results flagged for a closer look

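Some named genes differed by at least 1.5-fold in the G15 pair. In each pair of the group compared they differed by at least 1.25-fold the opposite way. The named genes include the 5 highest and 5 lowest of each tested difference between responses. That choice favours large changes in opposite directions, so the sizes below are a description. Against both pairs without antagonist, XPO7, a nuclear transport receptor, differed by 0.836 and MALAT1 by 0.834 with G15, and both were below 0 without antagonist. ELMO2, a regulator of engulfment and migration, differed by -0.612 and FUT8, the core fucosyltransferase, by -0.644, and both were above 0 without antagonist. With a gene's probe sets averaged, XPO7 was at 0.24, MALAT1 at 0.50, ELMO2 at -0.14 and FUT8 at -0.48 with G15. The difference between the responses was 1.42 for XPO7, 1.36 for MALAT1, -1.08 for ELMO2 and -1.06 for FUT8, and none passed (limma, adjusted p = 0.0873, 0.118, 0.177 and 0.176).

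Against the ICI pair, GLI3, a Hedgehog pathway factor, differed by 0.735 and DNM3, a dynamin, by 0.603 with G15, and both were below 0 with ICI. With a gene's probe sets averaged, GLI3 was at 0.18 and DNM3 at 0.25 with G15. The interferon-stimulated IFI6 differed by -1.18 and IFI27 by -1.44 with G15, and both were above 0 with ICI. The difference between these responses was 1.07 for GLI3, 1.05 for DNM3, -1.56 for IFI6 and -2.13 for IFI27. None passed (limma, adjusted p = 1, 1, 0.756 and 0.0752).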

How the results depend on the processing

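The number of 2-fold probe sets moved with the scale and the threshold. Quantile normalisation of all 11 arrays gave 186 higher and 146 lower, that of the 8 larger-set arrays alone, chosen after seeing the data, 39 and 20, and thresholds of 1.5-fold and 3-fold gave 607 and 224, and 7 and 0. Removing each array's median gave 75 and 8, and probe sets with 1 symbol 50 and 8. The moderated fit's 61 calls became 0 without the block and 0 after quantile normalisation, and 60 with a robust prior; the cause was not tested. The tested differences between responses had 0 calls in every fit run, with 1330 to 4377 probe sets at an unadjusted p under 0.05 when 1 array of another pair was left out of the shared-response fit. Leaving out an array of the G15 pair leaves no difference to read. The median of the transcripts chosen without antagonist arrays was 0.61 at 1.5-fold (221 probe sets), 1.75 at 3-fold (4), 1.60 after quantile normalisation (10), 0.57 when chosen on the first pair alone and 0.99 on the second alone. The estrogen-repressed median was -0.41 with averaged probe sets and -0.87 after quantile normalisation, and the interferon median -0.72 after it. Averaging also moved the medians of the nuclear-retained (0.16), cyclic AMP (-0.10), cofactor (0.01) and FOXO-type (-0.07) lists, and quantile normalisation the nuclear-retained one (0.65). Of 56 named genes past 1.5-fold none changed sign under median centring, either quantile normalisation or averaged probe sets, though these moved 0, 48 (11 arrays), 16 (larger set) and 28 of them by at least the SE of the fit. No paired analysis was possible because the G15 pair has 1 array on each side.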
